A study of Mus musculus with 4 samples.

Results

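The 39 Hox genes of the mouse, chosen as every gene symbol in the deposited tables made of Hox, a cluster letter from a to d and a paralogue number, were followed among 32290 genes in cells of 2 white adipose depots. They fall into the clusters HOXA with 11 genes, HOXB with 10, HOXC with 9 and HOXD with 9. Cells were profiled by droplet single-cell RNA-seq in 4 libraries, 1 per group, from SC (subcutaneous) and IP adipose tissue of WT mice (Tie2e-cre; TERT+/+; mTmG) and of KO mice (Tie2e-cre; TERTfl/fl; mTmG). In every group Cre was driven by the Tie2e promoter, which is active in endothelial cells, so that in KO mice the telomerase gene Tert was the floxed target, and the mTmG fluorescent reporter was carried by WT and KO alike. Mice were male, 7 months old, and had been fed a high-fat diet for 5 months. The number of mice behind each library was not given in the sources used here, and because each group was 1 library no difference could be set against a spread between animals. Within a genotype, the depots cannot be told apart from the 2 libraries that stand for them, and the same holds for the genotypes within a depot.

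Hox genes encode homeodomain transcription factors that pattern the head-to-tail axis of the embryo. They lie in clusters in which gene order follows the order of expression along that axis, low paralogue numbers anteriorly and high numbers posteriorly, and adult fibroblasts, preadipocytes and vascular cells keep a Hox profile that depends on where in the body they came from. Adipose depots differ in this profile, so that Hox genes are often used as markers of depot identity of adipose stromal cells (ASC). HOX proteins bind DNA together with cofactors of the TALE class (PBX, MEIS and PREP proteins), and Polycomb and Trithorax complexes maintain the silent or active state of the clusters.

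The tables held 4927 barcodes and 49915547 UMIs (unique molecular identifiers, one per captured transcript end), of which 4024 cells were kept. Between 518 and 1866 cells per library were kept, and 18 barcodes (0.445%) were removed as doublets. Cells were assigned to a class by counting the markers of each class with a UMI. Stromal cells numbered 102 in WT SC, 283 in WT IP, 124 in KO SC and 222 in KO IP, and all 12 stromal markers, Pdgfra and Dcn among them, were detected in each library. Their median depth was 19990, 23095, 14037 and 19868.5 UMIs in that order. SC libraries consisted largely of T and B cells (468 and 306 cells in WT, 1171 and 473 in KO). Of the depot genes, Wt1, a visceral mesodermal factor, had 0 stromal UMIs in both SC libraries, 885 in IP of WT and 1226 in IP of KO, and Tbx15, a factor of subcutaneous ASC, had 277, 6, 242 and 12 UMIs in WT SC, WT IP, KO SC and KO IP, so that the depot labels and these genes matched. Tert had 0 UMIs in the 25 endothelial cells of the 4 libraries and between 2 and 9 UMIs in all kept cells of a library, so the deletion could not be checked.

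Before any result, 93 barcodes appeared both in WT IP and in KO SC. At these the median depth was 35392 UMIs in WT IP and 601 in KO SC, and 98.8% of the gene entries in KO SC were also present at the same barcode in WT IP, against 82.2% for the next shared barcode. Of the 93, 75 were stromal in WT IP and 77 in KO SC, and they held 1051 Hox UMIs in WT IP and 19 in KO SC. WT SC and KO IP shared 1 further barcode, and so did KO SC and KO IP. Each shared barcode was left out of the library with fewer UMIs there, 94 from KO SC and 1 from KO IP. With them kept, KO SC had 201 stromal cells and the 6 genes described next were called with the same direction. With them left out of both libraries, WT IP had 208 stromal cells and Hoxb5 was no longer called in WT. The stromal cells of KO SC and KO IP then numbered 124 and 222, as before.

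Of the 39 Hox genes, 30 had at least 1 UMI in stromal cells of any library and 20 had one in all 4. The number detected was 24 in WT SC, 28 in WT IP, 25 in KO SC and 26 in KO IP. The 9 genes without a stromal UMI were Hoxa13, Hoxb1, Hoxb13, Hoxc12, Hoxc13, Hoxd1, Hoxd10, Hoxd12 and Hoxd13, which are mostly at the posterior end of the clusters, and 8 more genes had at least 1 but under 20 stromal UMIs in all libraries together. Summed over all Hox genes, the level in stromal cells was 291 CPM (UMIs of a gene per 1000000 UMIs of the same cells) in WT SC (95% Poisson interval 267 to 317), 354 in WT IP (339 to 369), 308 in KO SC (282 to 336) and 355 in KO IP (338 to 372). The summed level was thus a little higher in IP, by 0.28 (0.14 to 0.42) on the log2 scale in WT and by 0.20 (0.06 to 0.35) in KO. All intervals given here cover counting error only.

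Across the libraries the first gene by number of UMIs was Hoxc8, a mid-cluster gene, with 15.6% of Hox UMIs in WT SC, 21.9% in WT IP, 13.5% in KO SC and 21.5% in KO IP. The kit captures transcript ends, so UMIs are not scaled by length and no level is compared between genes beyond this count. Hoxc8 had 82, 476, 68 and 354 stromal UMIs in WT SC, WT IP, KO SC and KO IP, or 45.4, 77.6, 41.7 and 76.2 CPM. Both IP libraries were above both SC libraries, by 0.77 (0.43 to 1.13) on the log2 scale in WT and 0.86 (0.49 to 1.27) in KO, which is less than 2-fold.

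Of the genes called between depots in at least 1 genotype, those higher in IP were of paralogue groups 3 to 8 and those lower in IP of groups 9 to 11. Hoxd9, of group 9, went the other way in WT without being called, with 2 UMIs in SC and 25 in IP (log2 1.59, -0.12 to 5.00), and had 5 and 13 UMIs in KO, too few to compare. Ratios were taken with 0.5 UMI added to each count. A gene was called when it had at least 20 UMIs in both libraries together, differed at least 2-fold and had a 95% counting interval of the log2 ratio without 0. In WT, 19 Hox genes could be compared, of which 5 were called higher in IP (of all genes compared, 7.45% were) and 3 lower (5.97% of all genes). In KO, 19 could be compared, with 4 higher (10.2% of all genes) and 4 lower (5.78%). Hoxa3, Hoxa5 and Hoxb5 were called higher in IP in both genotypes, and Hoxa9, Hoxa10 and Hoxc10 were called lower in both, that is 3 and 3 of 18 genes compared in both (4.12% and 3.56% of all genes). These comparisons of WT and of KO shared no library. The log2 difference had the same sign in both for 14 of the 18 genes (77.8%), against 70.6% of 11158 genes. The median Hox gene lay at 0.53 in WT and 0.21 in KO, where the median of all genes compared was 0.07 and 0.11.

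Hoxa3, Hoxa5 and Hoxb5 belong to the anterior to middle part of their clusters. Hoxa5, which is needed for lung and cervico-thoracic patterning, had 4 stromal UMIs in WT SC, 187 in WT IP, 5 in KO SC and 141 in KO IP. In CPM this was 2.21, 30.5, 3.06 and 30.4. The 2 IP libraries stood clearly apart from the 2 SC libraries, with 12.3-fold higher levels in WT (log2 3.62, 2.40 to 5.67) and 9.04-fold in KO (log2 3.18, 2.05 to 4.95). Hoxa3, a gene of neck and pharyngeal development, was at 14, 145, 9 and 105 UMIs in WT SC, WT IP, KO SC and KO IP. It was 2.96-fold higher in IP of WT and 3.90-fold higher in IP of KO (log2 1.56, 0.82 to 2.52, and 1.96, 1.06 to 3.20). Hoxb5, whose protein is a paralogue of HOXA5, was rarer, at 1, 33, 2 and 30 UMIs, and its log2 ratio of 2.72 (0.70 to 8.63) in WT and 2.10 (0.42 to 5.51) in KO was correspondingly wide.

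On the posterior side, Hoxc10, a lumbar gene, gave the widest difference among the genes with UMIs in both depots. It had 66, 13, 63 and 6 stromal UMIs in WT SC, WT IP, KO SC and KO IP, or 36.5, 2.12, 38.6 and 1.29 CPM, in 34 of 102, 7 of 283, 44 of 124 and 3 of 222 cells. In IP it was 16.7-fold lower in WT (log2 -4.06, -5.09 to -3.24) and 27.8-fold lower in KO (log2 -4.80, -6.40 to -3.70). Hoxa10, a gene of the lower trunk and the reproductive tract, had 29, 14, 23 and 6 UMIs. The 14 UMIs of WT IP came from 4 cells only, and 1 cell held 10 of them. The log2 ratio was -2.79 (-3.85 to -1.85) in WT and -3.36 (-5.03 to -2.11) in KO, and again both SC libraries were above both IP libraries. Hoxa9, its neighbour, had 18, 11, 20 and 6 UMIs, with log2 ratios of -2.45 (-3.70 to -1.31) and -3.17 (-4.85 to -1.88). Hoxc11 followed, with 9 UMIs in WT SC, 22 in KO SC and 0 in both IP libraries. In KO the level in SC was at least 20.9-fold higher when IP was set at the 3 UMIs that a count of 0 allows and the SC count was taken as it stands, and the exact interval of the log2 ratio of IP over SC ended at -3.96, while in WT it was under 20 UMIs and not compared.

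**Figure D1:**
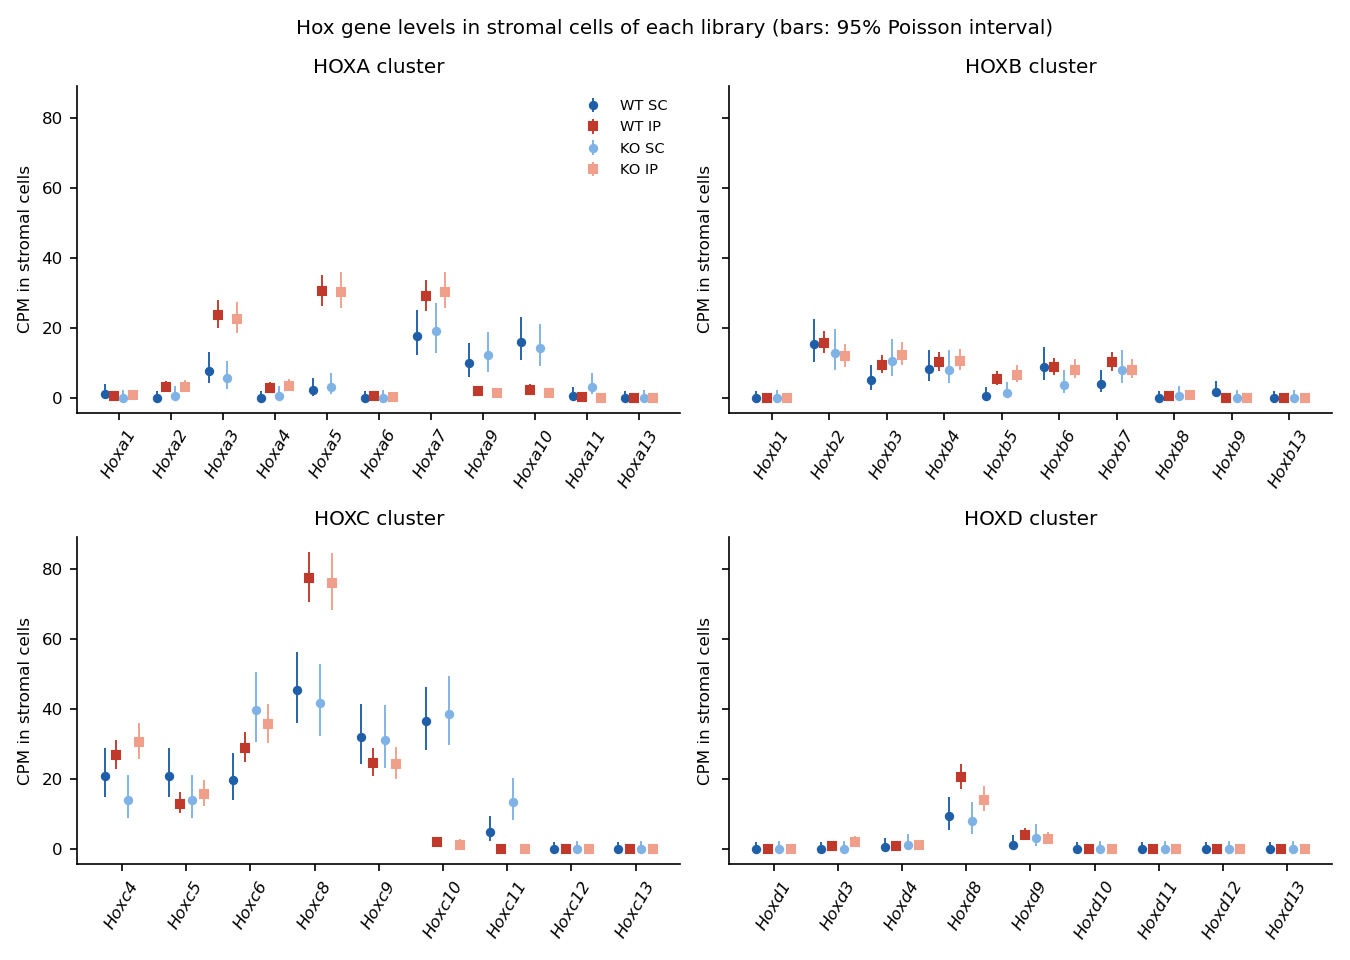
Level of each Hox gene in stromal cells (CPM, UMIs per 1000000 UMIs), one panel per cluster and one point per library, blue for SC and red for IP, dark for WT and pale for KO, with 95% Poisson intervals. Hoxa5 stands at 30.5 and 30.4 CPM in the IP libraries and at 2.21 and 3.06 in the SC libraries, while Hoxc10 stands at 36.5 and 38.6 in SC and 2.12 and 1.29 in IP.

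The sequences before the starts of Hoxa5, Hoxa9 and Hoxa10, 3 of the 4 HOXA genes called in both genotypes (the other being Hoxa3), are shown because these genes, on one stretch of chromosome 6 (minus strand), differed between depots in opposite directions. Hoxa7, which lies between Hoxa5 and Hoxa9, was not called in either genotype. The 250 bases upstream of the RefSeq starts in GRCm38.p6 are given 5′ to 3′ on the minus strand, with the homeodomain core TAAT (ATTA on the other strand) in capitals. Hoxa5 is at chr6:52204588-52204837, Hoxa9 at chr6:52227371-52227620, and Hoxa10 has 2 starts, at chr6:52234940-52235189 and chr6:52240855-52241104. TAAT was present 3 times before Hoxa5, 2 times before Hoxa9, and 2 times and 1 time before the starts of Hoxa10, and 54.9% of all 32851 RefSeq promoters of this length held it at least once. TATAAA was present only before the first of the Hoxa10 starts (12.4% of all promoters), and CCAAT before Hoxa5 and that same start (33.8% of all). CpG numbered 28, 3, 20 and 7, where the median promoter held 6. A match describes letters only. RefSeq promoters were held for 22 Hox genes, and Hoxc10, Hoxc11, Hoxc8 and Hoxb5 were not among them.
Hoxa5: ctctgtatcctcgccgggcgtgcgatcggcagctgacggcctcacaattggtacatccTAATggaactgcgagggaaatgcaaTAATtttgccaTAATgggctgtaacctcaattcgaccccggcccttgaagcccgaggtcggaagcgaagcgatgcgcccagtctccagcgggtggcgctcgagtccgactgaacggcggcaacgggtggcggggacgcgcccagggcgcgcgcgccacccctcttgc
Hoxa9: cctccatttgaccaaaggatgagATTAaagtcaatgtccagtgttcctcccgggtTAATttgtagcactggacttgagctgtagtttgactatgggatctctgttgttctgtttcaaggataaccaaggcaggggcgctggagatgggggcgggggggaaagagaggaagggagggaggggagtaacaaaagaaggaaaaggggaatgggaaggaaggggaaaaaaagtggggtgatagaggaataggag
Hoxa10, first start: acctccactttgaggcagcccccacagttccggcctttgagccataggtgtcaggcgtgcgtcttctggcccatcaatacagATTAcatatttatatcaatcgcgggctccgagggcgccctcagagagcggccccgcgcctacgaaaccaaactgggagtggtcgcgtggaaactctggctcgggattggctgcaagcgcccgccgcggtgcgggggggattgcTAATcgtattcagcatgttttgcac
Hoxa10, second start: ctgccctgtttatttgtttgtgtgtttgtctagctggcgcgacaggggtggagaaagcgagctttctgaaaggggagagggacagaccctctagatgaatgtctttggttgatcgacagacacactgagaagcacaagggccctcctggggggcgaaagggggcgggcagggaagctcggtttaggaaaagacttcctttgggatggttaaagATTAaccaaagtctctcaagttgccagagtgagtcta

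Other genes, at various positions in the clusters, were called in 1 genotype or in none. Hoxa7 had 32, 178, 31 and 141 stromal UMIs in WT SC, WT IP, KO SC and KO IP, with log2 ratios of IP over SC of 0.69 (0.16 to 1.30) in WT and 0.66 (0.11 to 1.29) in KO, below 2-fold. Hoxc9, beside Hoxc10 and Hoxc8, had 58, 151, 51 and 113 UMIs and log2 ratios of -0.39 (-0.83 to 0.08) and -0.37 (-0.85 to 0.15), both intervals containing 0. Hoxb2 had 28, 96, 21 and 55 UMIs and ratios of -0.0040 and -0.14. The other genes called were called in 1 genotype only. Hoxb7 (7, 62, 13 and 37 UMIs) and Hoxd8 (17, 126, 13 and 66 UMIs) were called higher in IP in WT, Hoxc4 (38, 165, 23 and 142 UMIs) higher in IP in KO, and Hoxc11 lower in IP in KO. For Hoxd8 the ratio was 1.09 in WT and 0.79 in KO, for Hoxc4 0.34 and 1.09, and for Hoxb7 1.30 and -0.04, and whether these pairs differ was not tested. Hoxa2 and Hoxa4 had 18 and 17 UMIs in WT IP and 14 and 15 in KO IP against 0 in WT SC and 1 in KO SC each, and were too rare to compare.

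**Figure D2:**
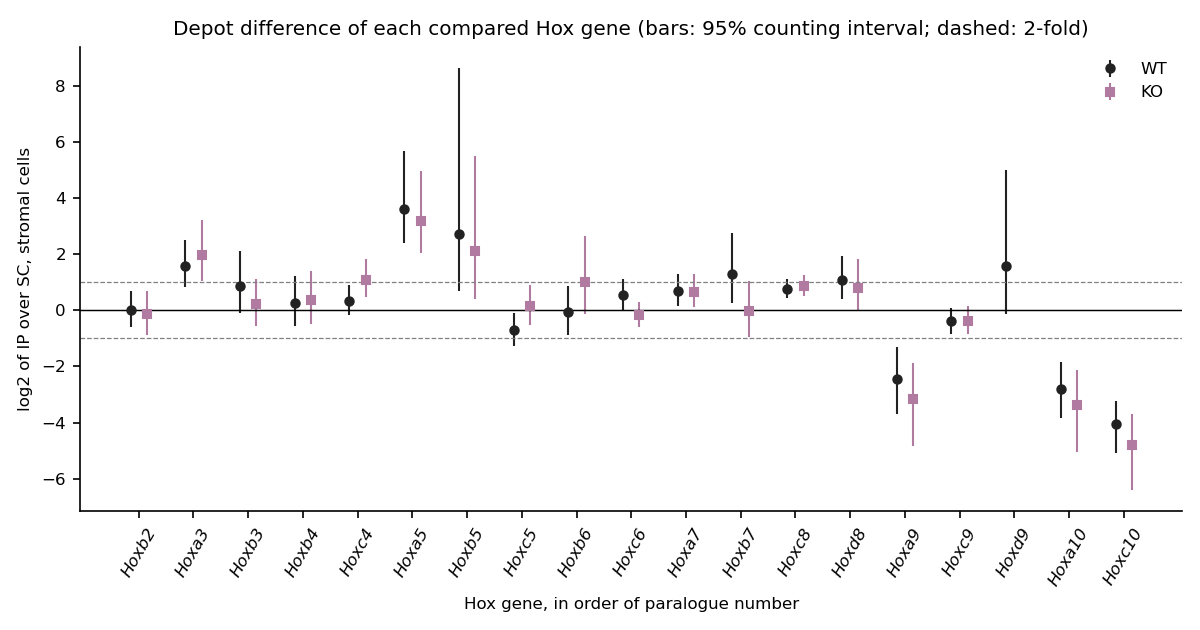
Log2 of the IP level over the SC level in stromal cells for the Hox genes with at least 20 UMIs, ordered by paralogue number, dark circles for WT and purple squares for KO, with 95% counting intervals and dashed lines at 2-fold. Hoxa3, Hoxa5 and Hoxb5 lie above the upper line in both genotypes, and Hoxa9, Hoxa10 and Hoxc10 below the lower one. Hoxc11, at 0 in IP, has no point.

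Grouped by position, stromal cells of IP had a larger share of anterior and a smaller share of posterior Hox UMIs than those of SC. Genes of paralogue groups 1 to 5 (15 genes) held 28.5% of Hox UMIs in WT SC, 40.3% in WT IP, 23.3% in KO SC and 42.4% in KO IP. Genes of groups 6 to 8 (8 genes) held 36.1%, 49.7%, 39.2% and 48.8%. Genes of groups 9 to 13 (16 genes) held 35.4%, 9.95%, 37.6% and 8.74%, and their summed level was 103, 35.2, 116 and 31.0 CPM, a log2 ratio of IP over SC of -1.55 (-1.84 to -1.26) in WT and -1.90 (-2.22 to -1.58) in KO. Within HOXA the 5 genes of groups 1 to 5 were at 11.1 CPM in SC and 60.3 in IP of WT and at 9.81 and 60.1 in KO, while the 4 genes of groups 9 to 13 were at 26.6 and 4.24 in WT and at 29.4 and 2.58 in KO. Within HOXC, the genes of groups 10 to 13 were at 41.5 CPM in SC and 2.12 in IP of WT and at 52.1 and 1.29 in KO, whereas those of groups 4 to 6 were at 62.0 and 69.0 in WT and 68.0 and 82.0 in KO. Over the 19 genes compared, Spearman's rho between paralogue number and log2 ratio was -0.35 in WT and -0.60 in KO, as a description across genes that share libraries and clusters.

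By cluster, the share of HOXC was 62.2% in WT SC, 49.0% in WT IP, 62.6% in KO SC and 51.8% in KO IP. HOXA made up 19.0%, 26.6%, 18.9% and 26.3%, and HOXD 3.80%, 7.51%, 3.98% and 5.64%. The interval of the HOXC level between depots contained 0 (log2 -0.06, -0.24 to 0.12, in WT and -0.07, -0.26 to 0.12, in KO), and the HOXA level was higher in IP (0.76, 0.46 to 1.09, and 0.67, 0.36 to 1.02). The HOXD level was higher in IP in WT (1.23, 0.59 to 2.01), and its interval contained 0 in KO (0.68, -0.00027 to 1.48). For HOXB the log2 ratio was 0.45 (0.10 to 0.82) in WT and 0.36 (-0.01 to 0.76) in KO.

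**Figure D3:**
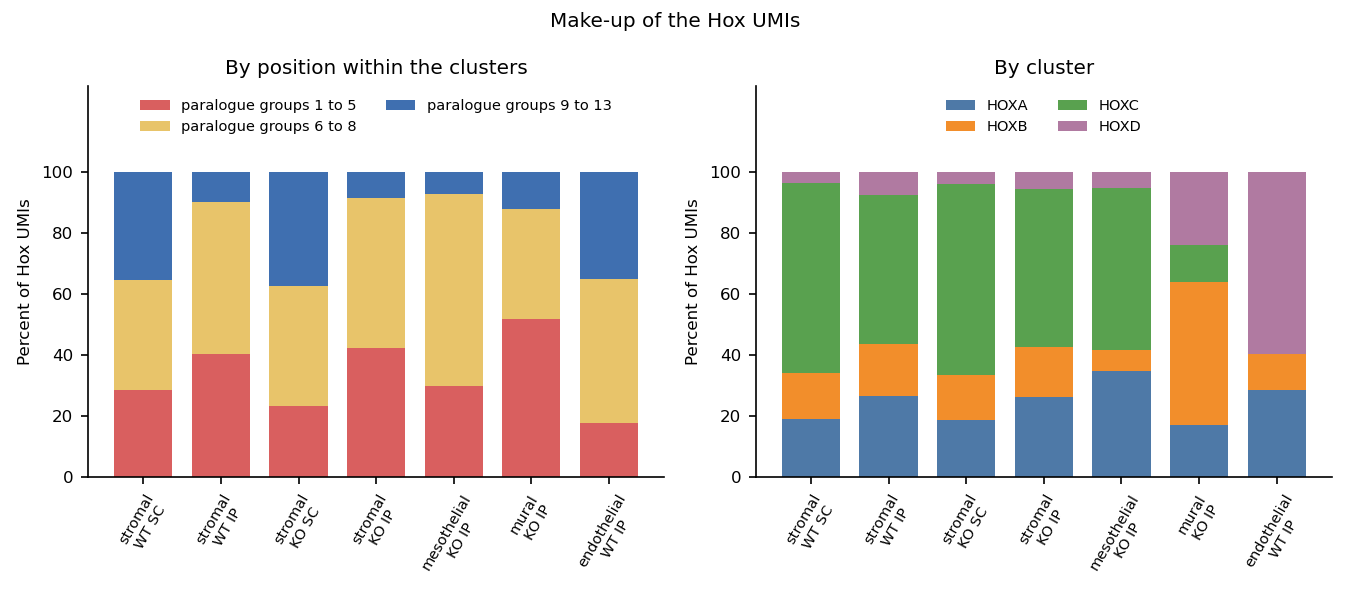
Percent of Hox UMIs by paralogue position (left) and by cluster (right) in stromal cells of the 4 libraries and in mesothelial and mural cells of KO IP and endothelial cells of WT IP. Groups 9 to 13 take 35.4% and 37.6% in stromal cells of SC and 9.95% and 8.74% in IP, and HOXC is at 0 in the endothelial cells.

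The same contrast was visible in single cells. A UMI of Hoxa9, Hoxa10 or Hoxc10 without one of Hoxa3, Hoxa5 or Hoxb5 was found in 39 of 102 cells of WT SC and 57 of 124 of KO SC, but in 7 of 283 of WT IP and 4 of 222 of KO IP. The opposite, only the anterior trio, was found in 6 and 5 cells of SC and in 148 and 107 of IP. Both sets were present in 8, 6, 9 and 5 cells of WT SC, WT IP, KO SC and KO IP. The genes that define these sets were chosen for their depot difference, so these counts describe it at the level of cells and add no evidence. Tbx15 was found in 56 of 102 stromal cells of WT SC and 74 of 124 of KO SC, and Wt1 or Tcf21 in 221 of 283 of WT IP and 169 of 222 of KO IP. Of the cells with Hoxc10, 26 of 34 in WT SC and 27 of 44 in KO SC also had Tbx15, and none had Wt1 or Tcf21. In WT IP, 6 of the 7 cells with Hoxc10 had Wt1 or Tcf21 and none had Tbx15, and in KO IP the same held for 2 of the 3.

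**Figure D4:**
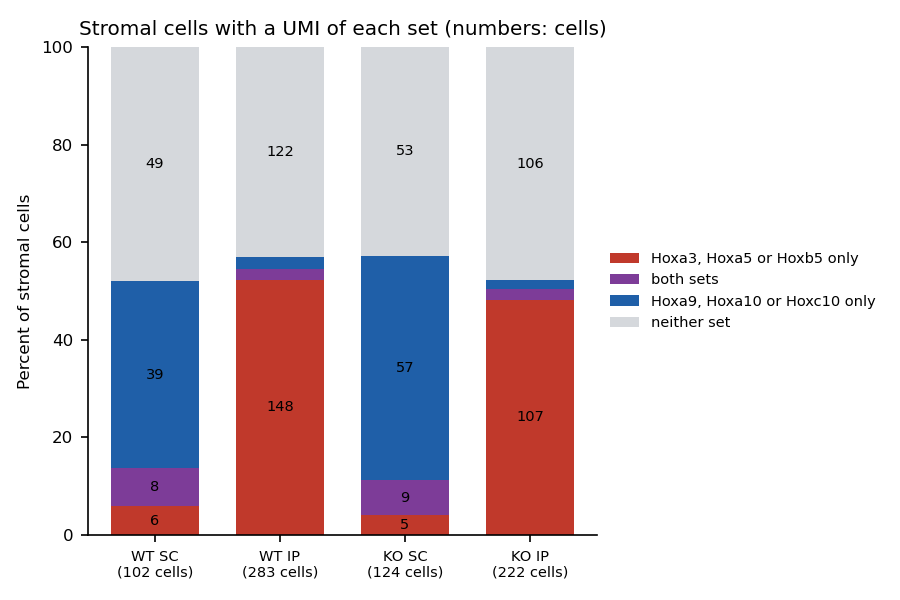
Percent of stromal cells in each library with a UMI of Hoxa3, Hoxa5 or Hoxb5 only (red), of Hoxa9, Hoxa10 or Hoxc10 only (blue), of both sets (purple) or of neither (grey), with the number of cells written in the larger parts. The blue part holds 39 and 57 cells in SC and 7 and 4 in IP.

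At least 1 Hox UMI was found in 83.3% of stromal cells in WT SC, 89.0% in WT IP, 86.3% in KO SC and 82.4% in KO IP. After thinning each cell to 5000 UMIs, which left out 28, 46, 24 and 47 shallower cells, the shares were 74.3%, 78.9%, 79% and 80%, and their intervals overlapped. The median number of Hox genes in a cell was 3, 5, 3 and 4 before thinning and 1 in each library after it. Hoxc10 was in 33.3% of WT SC and 35.5% of KO SC stromal cells before and 13.5% and 21% after, and in 2.47% of WT IP and 1.35% of KO IP cells before and 0.844% and 1.14% after. As a background, T cells, at a median of 7828 UMIs in KO SC, had 0 cells of 1171 with Hoxc10 or Hoxc8. Hoxa5 was in 34.3% of WT IP and 32.9% of KO IP cells, and in 14.3% and 12.6% after thinning.

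Stromal cells were also split by marker genes into progenitors (Pi16, Dpp4 and others), committed preadipocytes (Icam1, Pparg and others) and F3 cells. Among progenitors, with 59, 61, 87 and 60 cells in WT SC, WT IP, KO SC and KO IP, Hoxa5 had 2, 64, 4 and 38 UMIs and Hoxc10 had 37, 7, 46 and 0. The log2 ratio of IP over SC for Hoxa5 was 4.24 (2.64 to 7.63) in WT and 2.68 (1.36 to 4.78) in KO. The depot difference of Hoxa5 was thus present within this subset. Hoxa5 and Hoxc10 were chosen for their depot difference, so their subset counts describe it and add no evidence. Of the genes called in both genotypes, only Hoxa9 in WT had an interval in progenitors that contained 0 (log2 -1.73, -4.41 to 0.20). Of the 14 Hoxa10 UMIs of WT IP, 12 were in progenitors. The committed and F3 subsets had only 13 to 24 cells in SC. Some of the called genes had intervals containing 0 there, such as Hoxa3 in WT, at 0.96 (-0.21 to 2.75) in committed and 0.54 (-1.14 to 3.94) in F3 cells. Others did not, such as Hoxa9 in committed cells of WT (-5.12, -11.1 to -2.72). Among committed cells, 24 in SC and 107 in IP of WT, Hoxa5 had 1 UMI in SC and 56 in IP of WT. In KO it had 0 and 23. Its log2 ratio was 2.62 (0.65 to 8.52) in WT, and in KO its interval began at 0.57. Hoxc10 had 16 and 4 UMIs in WT. In KO, Hoxc10 had 4 UMIs in 13 committed cells of SC and 5 in 49 of IP, a log2 ratio of -1.66 (-3.84 to 0.71) whose interval contained 0. F3 cells numbered 15 in SC and 81 in IP of WT, and 20 and 79 in KO. Among them Hoxa5 had 1 and 56 UMIs in WT and 1 and 59 in KO. Its log2 ratio was 2.11 (0.15 to 8.02) in WT and 1.97 (0.0039 to 7.87) in KO, with lower ends close to 0. Hoxc10 had 9 and 2 UMIs in F3 cells of WT and 10 and 1 in KO.

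Between genotypes, 1 Hox gene was called in SC and none in IP. In SC, 17 genes could be compared, and of all genes 4.7% were called, 2.33% as higher in KO and 2.37% as lower. The 1 Hox gene was Hoxc11, with 9 UMIs in 8 cells of WT SC and 22 UMIs in 16 cells of KO SC (2.62-fold, log2 1.39, 0.26 to 2.74). Hoxc6 was just short of 2-fold, at 36 UMIs in WT and 65 in KO (log2 0.99, 0.39 to 1.63), and Hoxb6 had 16 and 6 UMIs (log2 -1.20, -2.91 to 0.16). In IP, 19 Hox genes could be compared and 0 were called, where of all genes 5.69% were, 3.89% as higher in KO and 1.81% as lower. No Hox gene was called in both depots, where 0.405% of all genes were higher in KO in both and 0.332% lower in both. Of the genes that differed by depot, the log2 of KO over WT in IP was -0.0046 (-0.33 to 0.32) for Hoxa5, -0.06 (-0.44 to 0.31) for Hoxa3 and 0.27 (-0.50 to 1.02) for Hoxb5. For Hoxc10 in SC it was 0.08 (-0.44 to 0.60). These intervals limit the size of a difference between these libraries and do not show that the genotypes are equal.

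Stromal cells of KO IP and of both SC libraries held more mesothelial marker UMIs than those of WT IP. Summed levels were 20.5, 1.14, 14.7 and 117 CPM in WT SC, WT IP, KO SC and KO IP. All 10 markers were detected in KO IP, 2 in WT SC, 4 in WT IP and 3 in KO SC. Msln, Lrrn4, Krt8, Krt18 and Gpm6a were at 0 in all libraries but KO IP. In WT SC the 2 markers were Krt19 and Upk3b, and Upk3b had 1 UMI, so that nearly all of this sum was Krt19. In KO SC the 3 were Krt19, Upk1b and Upk3b, the last with 1 UMI. Erythroid markers were at 8383 CPM in stromal cells of WT SC and between 37.4 and 332 CPM in the others. With the stromal cells that had any mesothelial marker UMI left out (84, 276, 113 and 203 cells remaining), the same 6 genes were called in both genotypes, and Hoxb6 (log2 -1.41) was called between KO and WT in SC in place of Hoxc11 (1.28). In WT SC this filter acted mainly through Krt19. The part of erythroid RNA was not tested.

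Outside stroma, Hox UMIs of the IP libraries were found mainly in mesothelial, endothelial and mural cells. In KO SC, T cells held 54 Hox UMIs, mural cells 36 and B cells 21. In WT SC, T cells held 22, B cells 14, and endothelial and mural cells 19 each. Stromal cells held 82.3%, 89.0%, 76.7% and 75.2% of all Hox UMIs of kept cells in WT SC, WT IP, KO SC and KO IP. The classes that follow have fewer than 30 cells in a library, and were chosen for description after their values were seen.

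Endothelial cells of IP had another Hox profile from the stromal cells of the same library. The class had 17 cells in WT IP, 5 in KO IP, 2 in WT SC and 1 in KO SC. The Hox make-up of the SC cells is not described here. All 17 of WT IP had Cdh5, and 13 had Prox1 and 14 Mmrn1, markers of lymphatic endothelium, while Pdgfra was in 1 and Dcn in 6. Of the 5 in KO IP, 4 had Prox1 and 4 Mmrn1, and the 2 of WT SC had neither. HOXC genes had 0 of 151 Hox UMIs in these cells, which allows a share of up to 2.41% (exact binomial interval), whereas they had 1063 of 2170 (49.0%) in stromal cells of WT IP. HOXD genes had 90 of the 151 (59.6%), against 7.51% in stroma, a log2 ratio of levels of 3.53 (3.14 to 3.91). Hoxd8 had 36 UMIs, Hoxd9 29 and Hoxa7 23 in this class. Hoxd10, with 19 UMIs from 4 cells, had none in the 283 stromal cells of that library. In the 5 endothelial cells of KO IP, HOXC again had 0 of 25 Hox UMIs and HOXD 14 of 25, a log2 ratio of 3.14 (2.18 to 3.92) over stroma. The HOXD UMIs were concentrated in few cells. In WT IP 1 cell held 15 of the 36 UMIs of Hoxd8, and 1 cell 13 of the 29 of Hoxd9 and 1 cell 10 of the 19 of Hoxd10, while in KO IP 1 cell held all 5 of Hoxd8 and 1 cell 5 of the 7 of Hoxd9.

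Mesothelial cells, which line the peritoneal surface, were 28 in IP of KO and 4 in IP of WT, with 0 in both SC libraries. Their depth in KO IP was high, with a median of 52617 UMIs, and their leading genes included Msln, Upk3b and Krt18, and also the seminal vesicle gene Svs5. Their summed Hox level was 309 CPM (281 to 340), beside 355 (338 to 372) in stromal cells of KO IP. The stromal marker Dcn had a UMI in all 28 of these cells and Pdgfra in 15, and the part of stromal RNA in their Hox values was not tested. Hoxc8 had 93 UMIs, Hoxc6 71 and Hoxa7 67, and the IP-high gene Hoxa5 was found in 22 of the 28 cells with 43 UMIs. HOXB genes were lower than in stromal cells of KO IP, at 21.3 against 57.7 CPM (log2 -1.42, -2.04 to -0.88), with 0 UMIs of Hoxb5 and 1 of Hoxb2. Hoxc10 had 1 UMI.

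Mural cells numbered 9 in KO IP, 8 in KO SC, 4 in WT SC and 3 in WT IP, with summed Hox levels between 314 and 430 CPM. In KO IP, HOXB held 46.6% and HOXC 12.1% of their 58 Hox UMIs, and the HOXB level was higher than in stroma (log2 1.37, 0.72 to 1.92) while that of HOXC was lower (log2 -2.17, -3.59 to -1.22). Of the 9 Hoxb4 UMIs in these cells of KO IP, 1 cell held 8. In KO SC, HOXC held 52.8% of the 36 Hox UMIs of mural cells. In the 3 mural cells of WT IP, Hoxc8 alone had 8 of the 24 Hox UMIs, at 110 CPM beside 77.6 in stroma. No Hox gene reached 10 UMIs in this class of a library.

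The Hox level of leukocytes was low. T cells were at 4.69 CPM in WT SC, 3.23 in WT IP, 5.62 in KO SC and 6.84 in KO IP, and macrophages at 11.1, 6.72, 16.2 and 12.4, so that the summed level was far under the 291 to 355 CPM of stroma. Over the 4 libraries, 1898 T cells had 88 Hox UMIs, of which 40 were of Hoxb4, a gene expressed in haematopoietic progenitors, and 25 of Hoxa7, and 825 B cells had 43, of which 31 were of Hoxb4. Hoxb4 reached 26 UMIs in 23 of 1171 T cells of KO SC and 16 in 15 of 473 B cells. Hoxc8, with the most UMIs in stroma, had 0 UMIs in T, B and NK cells and in macrophages. The leukocyte UMIs were not in the ratio of the stromal ones, in which Hoxb4 made up 2.87% and Hoxc8 20.2%.

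Several other genes of the Hox system were read in the same stromal cells. Of 9 TALE cofactors, 8 could be compared between depots, and 1 was called in WT and 2 in KO, where 13.4% and 16% of all genes were called in either direction. Meis1 was called higher in IP in both genotypes (119, 975, 137 and 826 UMIs in WT SC, WT IP, KO SC and KO IP, log2 1.27 and 1.08), and Pbx3 lower in IP in KO (log2 -1.45, and -0.96 in WT). Meis2, with 261, 1346, 241 and 1167 UMIs, was not called. Of the Polycomb genes, among them Jarid2, Rbbp7 and Rbbp4, 0 of 16 compared in WT and 0 of 15 in KO were called, and 0 of 9 Trithorax and H3K27 demethylase genes, Kdm6b, Kmt2a and Kdm6a among them, in either genotype, beside the same 13.4% and 16% of all genes. The median log2 ratio of the Polycomb genes was -0.11 in WT and -0.17 in KO, and of Trithorax genes -0.06 and 0.10, where the median of all genes was 0.07 and 0.11.

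Of 18 listed noncoding RNAs of the Hox clusters, 10 were in the tables, 4 had enough UMIs and 1 was called in each genotype. Of all genes compared, 13.4% were called in either direction in WT and 16% in KO. Hotairm1, from the anterior end of HOXA, had 23, 108, 24 and 113 UMIs and was not called (log2 0.44 and 0.70). Hoxd3os1 was called higher in IP in WT (6 and 54 UMIs, log2 1.30). In KO, with 16 and 32 UMIs, its log2 ratio was -0.53 (-1.42 to 0.46), the opposite sign, and it was not called. Hoxaas3 was called higher in IP in KO (0 and 20 UMIs) and had 3 and 22 in WT. Hoxb3os, with 4, 37, 4 and 29 UMIs, was not called (log2 1.30 and 1.20, both intervals containing 0). Of the retinoic acid axis, which controls Hox genes in the embryo, 10 of 16 genes could be compared. Of these, 4 were called in WT and 5 in KO, beside the same 13.4% and 16% of all genes. Aldh1a2, which makes retinoic acid, was called higher in IP in both genotypes (1 UMI in SC and 586 in IP of WT, 11 and 139 in KO), and Rarg, a receptor, lower in both (log2 -1.52 and -2.06). Rarb was called lower in IP in WT (log2 -1.73), and in KO Aldh1a1 was called higher (log2 1.12) and Cyp26b1, which breaks retinoic acid down, lower (31 UMIs in SC and 1 in IP). Aldh1a3, with 544, 1317, 379 and 695 UMIs, was not called. Between genotypes, the genes called in these lists were Cbx7 (log2 1.37), Hoxd3os1 (1.49) and Cyp26b1 (2.95), higher in KO SC than in WT SC, and Aldh1a2, lower in KO IP than in WT IP (log2 -1.67). Of all genes compared, 4.7% were called between genotypes in SC and 5.69% in IP.

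All 39 gene identifiers were matched to the GENCODE annotation of GRCm38. HOXA lies on chromosome 6, HOXB on 11, HOXC on 15 and HOXD on 2. Of the 39 genes, 11 overlap another Hox gene on the same strand, among them Hoxa3, which spans Hoxa4, Hoxa5 and Hoxa6, and Hoxc5, which spans Hoxc6, Hoxc8 and Hoxc9 and overlaps Hoxc10, and 14 overlap a gene on the opposite strand. Reads in such stretches may be shared out or dropped by the counting, so the values of these genes are uncertain to that extent, and Hoxd3 and Hoxd4 share 61.4% and 50.2% of their 25-base words with other genes. How strand and introns were counted was not given in the sources used here.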

How the data were processed

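The authors' deposited files are gene by barcode matrices of raw UMI counts per library (Chromium Next GEM 3′ v3 kit), made with Cell Ranger (7.0.0 in the file headers) and, per the submitters' processing notes, STAR 2.6 and mm10. Labels speak of cells and of nuclei for what was loaded. No pooled or normalised values were used. The members and lists were chosen with earlier results of these data known.

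Barcodes with under 200 genes or over 25% mitochondrial UMIs were dropped. Barcodes shared by libraries were left out of the library with fewer UMIs, and doublets were called with Scrublet (expected rate 5%, in scanpy 1.11.5), which marked 18 cells (0.445%), so that doublets may remain. Each cell was given to the class of which it expressed the largest part of the markers (3 or more), and was called mixed where an unrelated class with 3 or more markers came above 0.5 of that part. UMIs were summed by class and library and given as CPM. With 1 library per group there were no replicates within a group, and no test across samples was run. Levels have exact Poisson, shares exact Clopper-Pearson and ratios exact conditional binomial 95% intervals, with 0.5 UMI added to each count of a ratio but not to its interval, and a count of 0 allows 3 UMIs. Genes had to have at least 20 UMIs in both libraries together and differ 2-fold. The named genes were Hox genes called between depots in both genotypes or between genotypes, up to 3 Hox genes per other class with at least 10 UMIs, and in each list the 3 with most UMIs and those called in both genotypes. Other genes were named after their values were seen, and some genes that this rule takes are not reported here. The ratio method was tested on simulated counts. Promoters were from RefSeq, and gene positions from GENCODE.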

Additional observations from a re-analysis of the deposited data

Results flagged for a closer look

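The KO SC barcodes that were left out because another library held the same barcode with more UMIs carried 19 Hox UMIs. They are listed because they are a signal in barcodes that no comparison used, and they were compared with the WT IP barcodes only as given in the report.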

How the results depend on the processing

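No paired analysis was possible because the labels give no replicate numbers and each group is 1 library. Over 15 alternatives, 0 of 225 values of single genes changed sign, and 6 left their interval, all with cells thinned to 5000 UMIs (Hoxa5 in WT 2.23, Hoxa9 in KO -4.89, Hoxa10 in KO -1.70, Hoxc10 -3.15 in WT and -3.49 in KO, and Hoxc6 between KO and WT in SC 2.31, all log2). The settings of at least 10 UMIs, at least 50 UMIs and 1.5-fold alter only which genes are called. They could not change these values, yet their values are among the 225, so fewer than 225 values could have moved. The summed Hox level stayed between 0.21 and 0.37 in WT and 0.09 and 0.26 in KO. Thinned, 1 gene (Hoxa5) was called higher and 0 lower in IP in both genotypes, and 1 gene (Hoxb3) was called between KO and WT in IP, with fewer UMIs and fewer cells (74.3% and 78.9% of stromal cells of WT SC and WT IP then had a Hox UMI). With at least 50 UMIs required, 1 gene (Hoxc10) was lower in both and 0 were called between genotypes in SC, since fewer genes were compared. At 1.5-fold, 5 genes were higher in both (Hoxa7 and Hoxc8 added), and 2 (Hoxc6 and Hoxc11) were called between genotypes in SC. Between KO and WT in SC, classes from Leiden clusters gave 2 (Hoxb6 and Hoxc11) and equal weight for each cell 4 (Hoxa9, Hoxb3, Hoxc6 and Hoxc11), and the latter gave 1 (Hoxa10) in IP. For these 2 settings the cause was not tested. The share of all genes called was not computed under any alternative, so the counts of genes called under them have no such share beside them. The Hoxc11 log2 ratio of KO over WT ranged from 0.46 to 1.81. Keeping shared barcodes, or leaving them out of both libraries, was added after seeing the data. Little can be said of the rare members, since 9 genes had no stromal UMI and 8 had under 20. Whether low depth or lack of expression lies behind these counts was not tested.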
